A study of Mus musculus with 19 samples.

Results

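The mitochondrial ribosomal protein genes described here were every protein-coding gene of the deposited mouse liver table whose symbol begins with Mrpl or Mrps followed by a digit and that had normalized counts. This rule found 77 members among the 20433 genes with a normalized value, 48 named Mrpl and 29 named Mrps. It uses names alone and no measured value. Mrpl53 also matched by name, but it is listed with 1 read in all 19 libraries together and had no normalized value, so it is not among the members. All 77 members passed the filter on low values (3 or more libraries with a normalized count of at least 10), as did 14743 genes in all, which were tested.

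The study asked whether AN1284, an indoline derivative, changes a liver that has already developed steatohepatitis on a fat-rich diet. Male C57BL/6JOlaHsd mice, 4 weeks old at the start, ate for 4 months either a Western diet (WD, called HFD in the sample labels; rich in fat, with sucrose, fructose and cholesterol and with reduced choline) or a normal diet (ND). During the last 8 weeks an implanted osmotic pump delivered AN1284 or saline, so that every mouse carried a pump. The groups were WD with AN1284 at 1 mg/kg/day (n = 4), WD with AN1284 at 5 mg/kg/day (n = 3), WD with saline (n = 3), ND with AN1284 at 1 mg/kg/day (n = 3), ND with AN1284 at 5 mg/kg/day (n = 3) and ND with saline (n = 3), with 1 library of poly-A RNA per liver. All mice were of 1 sex and 1 strain, and the diet differs from the ND in several nutrients at once.

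The mitochondrial ribosome makes the few proteins that mitochondrial DNA still encodes, all of them parts of the respiratory chain and the ATP synthase. Its RNAs come from mitochondrial DNA, whereas its proteins are encoded in the nucleus, made in the cytosol and imported, so 2 genomes must be matched. The particle has a large subunit, which joins amino acids, and a small subunit, which reads the mRNA. Part of its proteins have counterparts in the bacterial ribosome and part are found only in mitochondria. By the unified nomenclature, 50 members belong to the large subunit and 26 to the small subunit, and 46 have a bacterial counterpart while 30 are specific to mitochondria. Mrps30 and Mrps18a belong to the large subunit despite their names. Mrps36 is counted apart, because its product is a subunit of the 2-oxoglutarate dehydrogenase complex and not of the ribosome. In liver, a tissue rich in mitochondria, these genes are expressed in hepatocytes and in all other cells.

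The libraries held 23326800 to 32596067 counted reads each, and the members took between 0.190% and 0.236% of them. The WD changed the make-up of the libraries: the 500 most abundant genes held 57.4% to 58.5% of reads in WD saline livers and 65.9% to 67.2% in ND saline livers. The size factors, by which the authors divided the counts, were 1.03 to 1.27 in WD saline livers and 0.759 to 0.791 in ND saline livers. A normalized count is therefore set against the typical gene, whereas a share of reads is set against the abundant ones. Between WD saline and ND saline, scaling by library totals instead of size factors shifted the median of all genes by 0.43 log2. For the diet, the comparisons with saline and the interactions, counts of members called are therefore given on both scales. Other counts and values of single genes are on normalized counts unless totals are named, and for the named genes of the partner lists only that scale was used. With totals, the share of all genes called is given for WD saline against ND saline alone. Elsewhere a count with totals has no such share beside it and is not read against all genes.

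The promoters of the members were compared first. RefSeq windows of 300 bases, from 250 before to 50 after a start site (GRCm38.p6), were at hand for 68 members, 74 windows in all, and were searched on both strands. The NRF1 core, CGCANGCG, stood in 27.0% of the members' windows and in 8.2% of all 32851 windows. The ETS motif CCGGAAG, bound by GABPA among others, stood in 33.8% of members' windows and in 8.9% of all. The YY1 motif AAGATGGCG stood in 10.8% of members' windows and in 1.4% of all. At least 1 of these 3 was present in 58.1% of members' windows against 16.5% of all. The GC box GGGCGG stood in 52.7% against 35.7%, the E-box CACGTG in 9.5% against 7.2% and TATAAA in 6.8% against 13.6%. These percentages count windows and not genes, and Mrpl2 has several overlapping windows that each hold the E-box. By gene, 5 of the 68 members had the E-box and 34 the GC box. The motifs of these 3 factors overlap with no other of the 3 in the windows printed here, and a match is a description of the letters, not of binding.

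Windows of 5 members are shown to make the shared and the unshared letters visible: Mrps31 and Mrpl34, which fell far on the WD, Mrps21, which carries 2 of the motifs, Mrps27, which carries all 3, and Mrps11, whose start lies head to head with that of Mrpl46. Capitals mark NRF1 core, ETS and YY1 matches on either strand, and each window is read in the direction of its gene.
Mrps31, chr8:22411090-22411389, plus strand: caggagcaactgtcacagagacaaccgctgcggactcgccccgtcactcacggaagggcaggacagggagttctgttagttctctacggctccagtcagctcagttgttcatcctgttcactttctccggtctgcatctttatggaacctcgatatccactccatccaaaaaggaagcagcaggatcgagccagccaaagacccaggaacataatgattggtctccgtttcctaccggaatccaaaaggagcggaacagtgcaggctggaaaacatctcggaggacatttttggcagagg
Mrpl34, chr8:71464676-71464975, plus strand: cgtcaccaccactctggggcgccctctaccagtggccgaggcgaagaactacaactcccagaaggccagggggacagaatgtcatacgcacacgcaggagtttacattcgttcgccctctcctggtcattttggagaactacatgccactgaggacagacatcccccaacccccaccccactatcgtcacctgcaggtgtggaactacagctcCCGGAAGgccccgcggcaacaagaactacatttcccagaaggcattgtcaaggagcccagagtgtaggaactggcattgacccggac
Mrps21, chr3:95871465-95871764, minus strand: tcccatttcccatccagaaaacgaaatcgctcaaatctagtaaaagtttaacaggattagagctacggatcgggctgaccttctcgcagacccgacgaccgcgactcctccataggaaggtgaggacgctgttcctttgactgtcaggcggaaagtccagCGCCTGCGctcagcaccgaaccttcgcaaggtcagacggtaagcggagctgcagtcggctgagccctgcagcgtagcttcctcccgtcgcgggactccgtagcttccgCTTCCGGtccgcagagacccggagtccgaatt
Mrps27, chr13:99344536-99344835, plus strand: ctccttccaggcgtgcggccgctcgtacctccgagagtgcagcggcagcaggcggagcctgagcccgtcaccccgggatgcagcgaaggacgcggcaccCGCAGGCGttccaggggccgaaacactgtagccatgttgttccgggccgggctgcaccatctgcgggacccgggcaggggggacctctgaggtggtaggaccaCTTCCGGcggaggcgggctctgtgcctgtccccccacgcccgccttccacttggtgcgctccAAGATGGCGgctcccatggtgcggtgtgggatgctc
Mrps11, chr7:78782881-78783180, plus strand: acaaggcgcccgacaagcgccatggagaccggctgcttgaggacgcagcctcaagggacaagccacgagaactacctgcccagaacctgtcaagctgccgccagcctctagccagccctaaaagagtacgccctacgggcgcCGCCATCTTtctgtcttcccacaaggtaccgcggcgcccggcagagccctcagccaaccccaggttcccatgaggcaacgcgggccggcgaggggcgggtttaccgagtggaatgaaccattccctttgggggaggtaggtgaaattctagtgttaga

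The window of Mrps31 has no match to the 3 motifs. In Mrpl34 the ETS match begins 37 bases before the start, and in Mrps11 the YY1 match begins 108 bases before it. The window of Mrps11 shares 141 bases with that of Mrpl46, which runs on the other strand. In the WD saline comparison given next, 31 of the 43 members with a match were lower, with a median log2 fold change of −0.53, and 20 of the 25 without one, with a median of −0.54. The members with and without these letters thus had close to the same median.

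The members differed widely in level. Per kilobase of exon (union of the coding transcripts of GENCODE vM21), the mean normalized count over 19 libraries ran from 51.5 for Mrps25 to 1776.4 for Mrpl12, a 34.5-fold range, with a median of 414.6. The median was 507.3 for members of the large subunit and 395.9 for those of the small subunit. Mrpl12, the stalk protein, which is present in several copies per ribosome, led the list. Mrpl52 followed with 1764.2, Mrpl42 with 1665.5 and Mrps21 with 1613.6 per kilobase. Without the length correction, the highest mean normalized counts were those of Mrpl12 and Mrpl38, and the lowest those of Mrps6 and Mrps36. Mrps6 (161.2) overlaps Slc5a3 (210.1) by 29152 bases on the same strand, so reads there cannot be assigned with certainty.

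The WD lowered the members relative to the typical gene. In WD saline against ND saline livers, 58 of the 77 members were lower and 0 were higher at an adjusted p under 0.05 (limma, log2 of the normalized count plus 1, Benjamini-Hochberg over all 14743 genes). Of all genes tested, 25% were lower and 28.1% were higher. Among the 7402 genes whose mean normalized count lay within the range of the members, 161.2 to 2337.8, 27.2% were lower. The median log2 fold change of the members was −0.54, a level 31.4% lower, and ran from −0.96 for Mrps31 to 0.07 for Mrpl16, against a median of 0.01 for all genes. In 62 members every WD saline library lay below every ND saline library, which held for 29.4% of all genes. Because these are whole livers, fewer cells of a type and less RNA per cell cannot be told apart.

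As a share of reads the members differed far less between the diets. Their summed share was 0.194%, 0.218% and 0.204% in the WD saline livers, against 0.236%, 0.201% and 0.221% in the ND saline livers. The groups overlap on this measure, with means of 0.205% ± 0.012 on the WD and 0.219% ± 0.018 on the ND (SD, n = 3 each). Scaled by totals, 11 members were lower and 5 were higher, their median was −0.11, and 9.16% of all genes were lower and 51.4% higher. Each scaling divides a library by 1 number, so the distance between the members and the typical gene must be nearly equal on both scales. This distance from the median of all genes was −0.55 with size factors and −0.55 with totals. By the counts and shares given here, the lower call of most members is a change relative to the other genes, and not one in the share of reads.

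**Figure D1:**
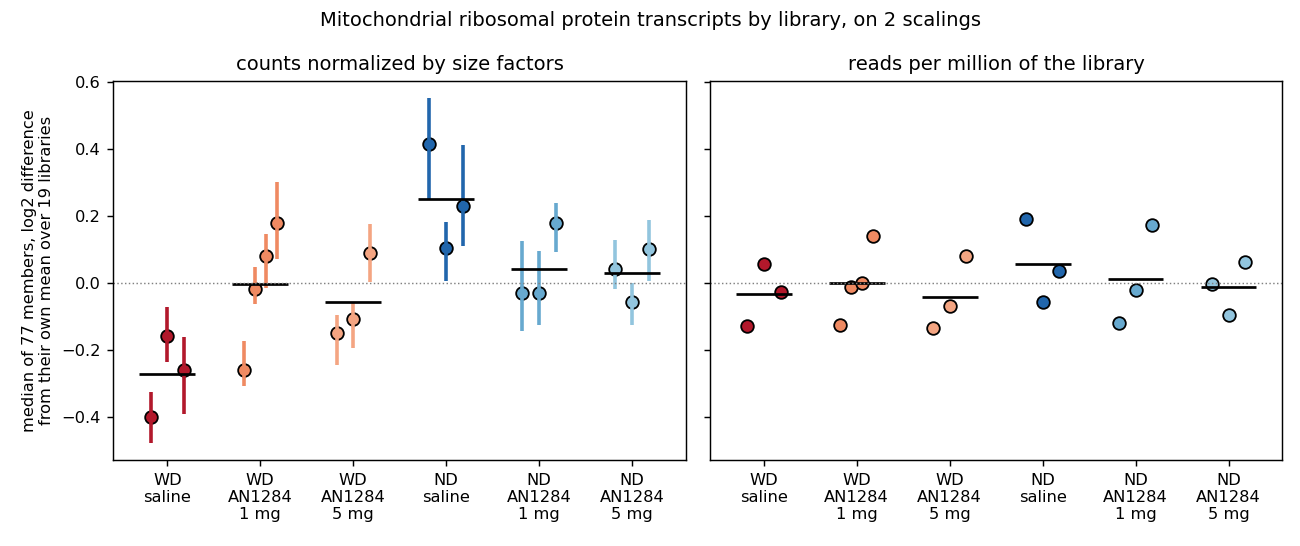
Median log2 difference of the 77 members from their own means, 1 point per library, with size factors (left; vertical lines run between the quartiles of the members) and scaled by library totals (right); horizontal lines are group means. With size factors the WD saline livers lie between −0.40 and −0.16 and the ND saline livers between 0.10 and 0.42, whereas scaled by totals the groups overlap.

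Mrps31, a protein of the small subunit found only in mitochondria, changed most. Its normalized counts were 550.3, 608.8 and 541.8 in WD saline livers, against 1098.8, 1018.1 and 1208.9 in ND saline livers. The groups are far apart. The log2 fold change was −0.96 ± 0.09 (SE; limma, adjusted p = 4.04e-07), and scaled by totals it was −0.53 ± 0.09 (adjusted p = 8.1e-05).

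Mrpl15 and Mrpl24, proteins of the large subunit with bacterial counterparts, came close behind. Mrpl15 had 765.7, 938.4 and 871.5 in WD saline livers, against 1802.8, 1484.4 and 1726.1 in ND saline livers. Mrpl24 had 771.6, 936.7 and 824.2 in WD saline livers, against 1971.4, 1339.5 and 1616.1 in ND saline livers. Every WD saline liver lay below every ND saline liver for both genes, and ND saline replicate 1 was the highest for each. The log2 fold changes were −0.96 ± 0.11 for Mrpl15 (limma, adjusted p = 1.47e-06) and −0.95 ± 0.14 for Mrpl24 (adjusted p = 2.95e-05).

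Mrpl38 is a large-subunit protein found only in mitochondria. It had 1363.6, 1518.4 and 1260.4 in WD saline livers, against 2818.5, 2282.5 and 2990.6 in ND saline livers (log2 fold change −0.96 ± 0.13, limma, adjusted p = 1.66e-05). Mrpl34 had 472.6, 580.0 and 454.3 in WD saline livers, against 1005.5, 788.9 and 953.4 in ND saline livers (−0.87 ± 0.14, adjusted p = 6.86e-05). These genes too showed no overlap between the groups. Mrps21 had 594.0, 678.0 and 546.6 in WD saline livers, against 1365.8, 841.6 and 1069.8 in ND saline livers (−0.83 ± 0.19, adjusted p = 0.0017). Scaled by totals, Mrpl15, Mrpl38, Mrpl24 and Mrpl34 were still lower, and Mrps21 no longer passed (−0.39 ± 0.18, adjusted p = 0.0609).

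**Figure D2:**
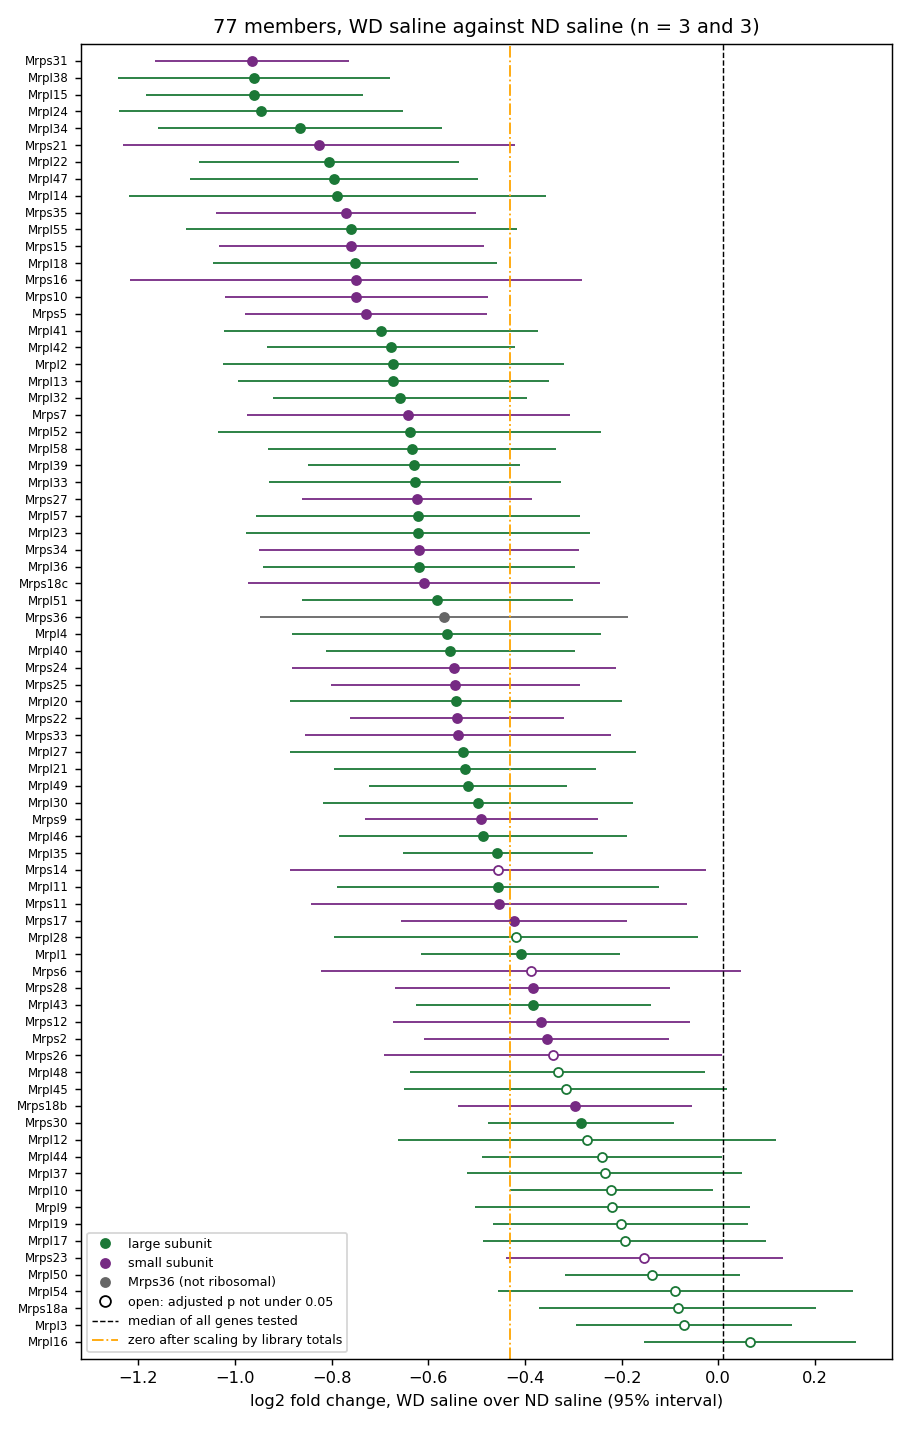
Log2 fold change of each of the 77 members, WD saline over ND saline, with its 95% interval; filled points had an adjusted p under 0.05, colours give the subunit, the dashed line is the median of all genes (0.01) and the dash-dotted line marks zero after scaling by totals. Of the 77 points, 76 lie below 0, from −0.96 for Mrps31 upward.

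The members did not all change by the same amount, and this unevenness does not depend on scaling. At the other end from Mrps31 stood Mrpl16 (0.07 ± 0.10), Mrpl3 (−0.07 ± 0.11), Mrps18a (−0.08 ± 0.14), Mrpl54 (−0.09 ± 0.17) and Mrpl50 (−0.14 ± 0.09), all of the large subunit and none past the test in limma. Scaled by totals, 4 of these were higher in WD saline livers: Mrpl16 by 0.50 ± 0.10 (adjusted p = 0.000358), Mrpl3 by 0.36 ± 0.11, Mrps18a by 0.35 ± 0.12 and Mrpl50 by 0.30 ± 0.09. Within a library, the reads of Mrps31 were 0.588, 0.567 and 0.511 of those of Mrpl16 in WD saline livers, against 1.096, 1.115 and 1.188 in ND saline livers. This ratio, a pair chosen after the values were seen, needs no scaling between libraries, and the groups are well apart. It was 0.916, 0.955, 0.941 and 0.844 in WD livers given AN1284 at 1 mg/kg/day and 0.969, 0.790 and 0.773 at 5 mg/kg/day.

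Both subunits and both origins took part. Of the large-subunit members 35 of 50 were lower, with a median log2 fold change of −0.54, and of the small-subunit members 22 of 26, with a median of −0.54. Of the members with a bacterial counterpart 36 of 46 were lower (median −0.54), and of those specific to mitochondria 21 of 30 (median −0.54). Scaled by totals, the 5 members that were higher all belonged to the large subunit.

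The members with particular identities were near the others or above them. Mrps36, the dehydrogenase subunit, had 158.2, 203.5 and 211.4 in WD saline livers, against 299.0, 212.1 and 351.5 in ND saline livers (−0.57 ± 0.18, limma, adjusted p = 0.0139). Mrps30, of the large subunit, had 593.0, 631.1 and 601.8 in WD saline livers, against 724.4, 723.1 and 777.7 in ND saline livers (−0.28 ± 0.09, adjusted p = 0.0146). Its values lay close together within each group, and the groups did not overlap.

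The paralogs Mrps18a, Mrps18b and Mrps18c descend from 1 ribosomal protein and sit at different places in the particle. Mrps18c, the closest to the bacterial protein, was lower in WD saline livers by −0.61 ± 0.17 (limma, adjusted p = 0.00696) and Mrps18b by −0.30 ± 0.11 (adjusted p = 0.0376), and Mrps18a had −0.08 ± 0.14 (adjusted p = 0.621). Scaled by totals, Mrps18b had 0.13 and Mrps30 had 0.15, so their direction rests on the scaling. Mrps18c then had −0.18 (limma, adjusted p = 0.35) and Mrps36 had −0.14 (adjusted p = 0.512), so that neither passed. The differences between the paralogs were not tested. Mrpl12 (−0.27 ± 0.19, adjusted p = 0.229) and Mrps6 (−0.39 ± 0.21, adjusted p = 0.123), among the extremes of level, did not pass.

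Mrps11 and Mrpl46, which share the head-to-head start shown above, were both called lower with size factors and neither with totals. Mrps11 had 238.7, 310.6 and 251.6 in WD saline livers, against 442.1, 287.1 and 378.1 in ND saline livers, and the groups overlap (−0.45 ± 0.19, limma, adjusted p = 0.0474). Mrpl46 had 312.5, 363.3 and 355.7 in WD saline livers, against 512.3, 422.8 and 514.7 in ND saline livers, with no overlap (−0.49 ± 0.14, adjusted p = 0.00797). Scaled by totals, Mrps11 had −0.02 (limma, adjusted p = 0.924) and Mrpl46 had −0.06 (adjusted p = 0.718). The genes overlap by 413 bases on opposite strands, and the strand setting of the counting is not given in the sources used here, so reads there cannot be assigned with certainty. In all, 40 members overlap another gene.

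Cell type markers moved between the same groups. Of 13 hepatocyte markers with a value, 12 were lower and 1 higher on the WD, with summed normalized counts of 1797770 to 2124850 in WD saline livers and 4026585 to 4201248 in ND saline livers. Higher on the WD were 11 of 12 macrophage markers (28820 to 39055 in WD saline livers, 7822 to 12255 in ND saline livers), 10 of 12 stellate cell markers (20747 to 29179 and 6737 to 9530), 5 of 9 cholangiocyte markers (7815 to 13424 and 2393 to 3621) and 7 of 8 endothelial markers (4848 to 7789 and 2910 to 3137). Of 9 lymphocyte markers, 2 were higher and 1 was lower (980 to 1487 and 353 to 482). No marker with a value was at 0 throughout a group. The part of the cell make-up in the members' change was not tested.

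With AN1284 at 1 mg/kg/day, part of the members were higher in the WD livers relative to the typical gene, though not as a share of reads. Against WD saline, 18 of the 77 members were higher and 0 lower (limma), where 10.3% of all genes were higher. The median log2 fold change of the members was 0.28, a level 21.8% higher, with 73 of 77 above 0, and that of all genes was 0.01. In 19 members every WD AN1284 1 mg library lay above every WD saline library, which held for 15% of all genes. Scaled by totals, which moved the median of all genes by −0.23, 0 members were higher and 2 were lower, and the members' median was 0.05. The distance of the median member from the median gene was 0.28 with either scaling, which is nearly equal by construction.

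The 4 livers of this group were unlike each other. Their median member stood at −0.26, −0.02, 0.08 and 0.18 from its overall mean in replicates 1 to 4, a wider range than the gap to the WD saline livers, which stood at −0.40, −0.16 and −0.26. Replicate 1 of WD AN1284 1 mg thus lay among the WD saline livers. Without it 39 members were higher, without replicates 2, 3 or 4 of this group 10, 9 and 7 were, and without WD saline replicates 1 or 3 the counts were 4 and 7. The count of 18 is therefore a loose one, and 3 members passed whichever library was left out. Here and below, the share of all genes called is not given for fits without 1 library. Those counts describe only how the member calls depend on single livers.

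The members that rose most under 1 mg/kg/day were Mrps16, Mrps18c, Mrpl18 and Mrpl27, all with bacterial counterparts. Mrps16 had 374.6, 541.4, 605.6 and 658.2 in WD livers given 1 mg/kg/day, against 315.4, 380.6 and 345.5 in WD saline livers (0.62 ± 0.21, limma, adjusted p = 0.0386). Mrps18c had 256.5, 339.1, 365.4 and 383.5 in WD livers given 1 mg/kg/day, against 185.4, 231.5 and 238.2 in WD saline livers (0.61 ± 0.16, adjusted p = 0.0104). In both genes replicate 1 of the treated livers was the lowest, with Mrps16 just under the highest WD saline liver.

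Mrpl18 had 670.5, 817.6, 799.6 and 809.5 in WD livers given 1 mg/kg/day, against 502.7, 623.7 and 540.3 in WD saline livers (0.48 ± 0.13, limma, adjusted p = 0.0125). Mrpl27 had 683.1, 780.2, 979.2 and 997.9 in WD livers given 1 mg/kg/day, against 538.6, 684.6 and 624.7 in WD saline livers (0.47 ± 0.16, adjusted p = 0.0408). Mrpl18 overlaps Tcp1, an abundant chaperonin gene on the opposite strand. Mrps31, the member with the largest fall on the WD, had 733.4, 765.7, 817.0 and 803.9 in WD livers given 1 mg/kg/day, against 550.3, 608.8 and 541.8 in WD saline livers, and had the smallest p of the members here (0.46 ± 0.09, adjusted p = 0.00108). None of these passed when scaled by totals. The WD saline livers here also served in the diet comparison.

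At 5 mg/kg/day fewer members passed in the WD livers. Against WD saline, 4 were higher and 0 lower (limma), where 5.51% of all genes were higher, so that the share of members called was near that of all genes. The median log2 fold change was 0.22, with 72 of 77 members above 0, and that of all genes was −0.01. Scaled by totals 0 members were higher, 2 were lower and the median was −0.00. Without WD AN1284 5 mg replicate 1 or WD saline replicate 3 the count was 0, and without WD AN1284 5 mg replicate 3 or WD saline replicate 1 it was 1.

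The 4 members were Mrps35, Mrpl15, Mrps31 and Mrps27, of which all but Mrpl15 are small-subunit proteins found only in mitochondria. Mrps35 had 601.2, 559.3 and 684.1 in WD livers given 5 mg/kg/day, against 430.9, 504.2 and 455.1 in WD saline livers (0.40 ± 0.13, limma, adjusted p = 0.0449). Mrpl15 had 1134.7, 1023.3 and 1241.7 in WD livers given 5 mg/kg/day, against 765.7, 938.4 and 871.5 in WD saline livers (0.40 ± 0.11, adjusted p = 0.0178). Mrps31 had 808.0, 675.5 and 756.1 in WD livers given 5 mg/kg/day, against 550.3, 608.8 and 541.8 in WD saline livers (0.39 ± 0.10, adjusted p = 0.0101). For all 3 genes the treated livers lay above every WD saline liver. Mrps27, which carries repeats of the kind that bind RNA, had 795.5, 731.9 and 729.9 in WD livers given 5 mg/kg/day, against 555.1, 644.3 and 550.5 in WD saline livers (0.37 ± 0.11, adjusted p = 0.0385).

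Marker genes moved between these groups as well. Of 13 hepatocyte markers, 12 were higher with 1 mg/kg/day (sums of 2759190 to 3047320) and 9 with 5 mg/kg/day (2321842 to 2884720), each against WD saline (1797770 to 2124850). Lower with 1 and 5 mg/kg/day were 9 and 6 of 12 stellate cell markers and 9 and 6 of 9 cholangiocyte markers. The summed stellate cell markers were 6342 to 11375 and 8129 to 12531 with 1 and 5 mg/kg/day, and 20747 to 29179 in WD saline livers. Of 12 macrophage markers, 2 were higher and 4 lower with 1 mg/kg/day, and 0 higher and 3 lower with 5 mg/kg/day, with sums of 23002 to 34688 and 26063 to 30171, and 28820 to 39055 in WD saline livers. Of 8 endothelial markers, 1 was higher and 1 lower with 1 mg/kg/day, and 0 higher and 1 lower with 5 mg/kg/day. Of 9 lymphocyte markers 0 passed at either dose, and 0 had an unadjusted p under 0.05 in limma. Their part in the members' values was not tested.

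**Figure D3:**
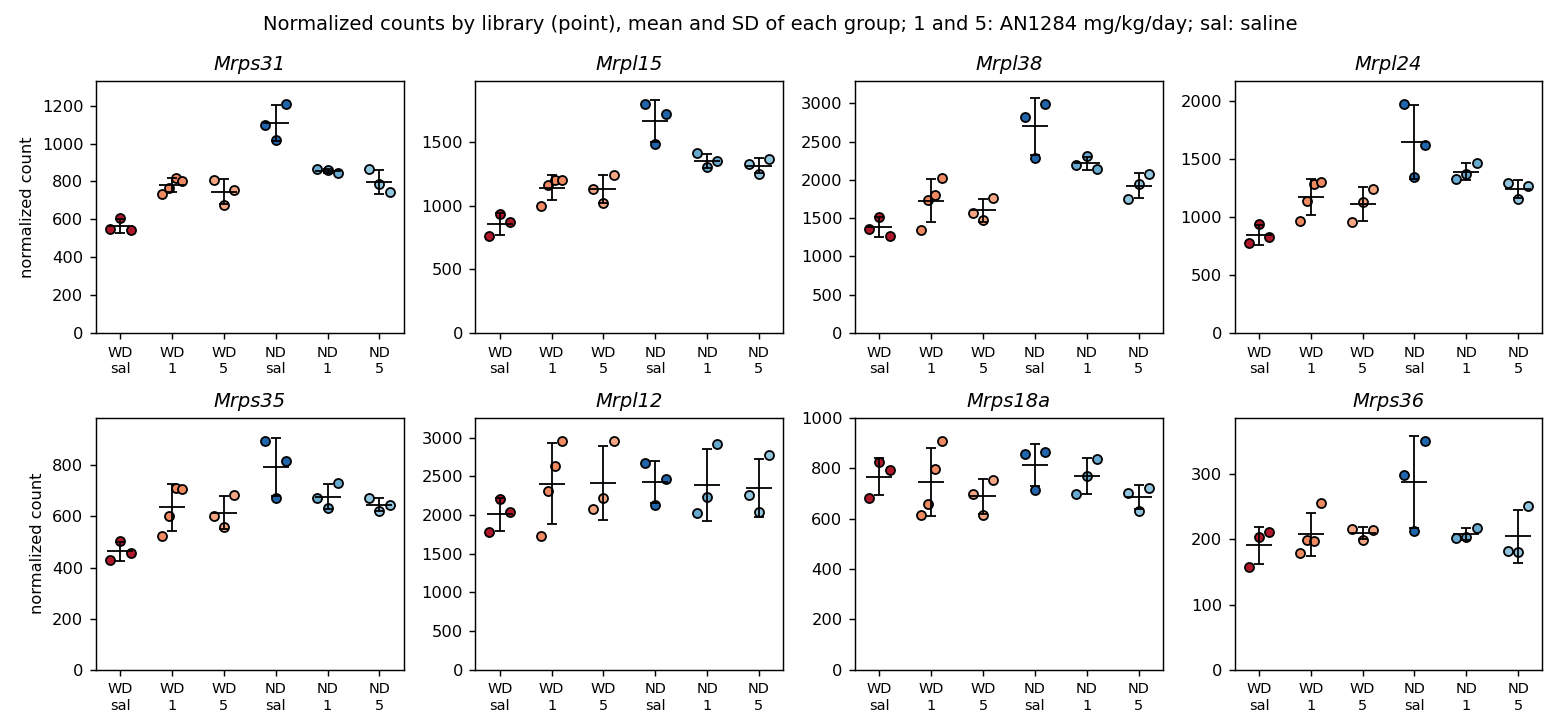
Normalized counts of 8 members in every library (points), with the mean and SD of each group (n = 3, and 4 for WD 1 mg). In Mrps31 the 3 WD saline livers (541.8 to 608.8) lie below all others, in Mrps18a the groups overlap.

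The doses were not told apart. Between WD livers given 5 and 1 mg/kg/day 0 members passed, as did 0% of all genes, and at an unadjusted p under 0.05 it was also 0 members in limma and 0 adjusted calls with limma voom. The log2 fold changes of the members lay between −0.20 and 0.10, with 95% intervals reaching from −0.55 to 0.41. Between ND livers given 5 and 1 mg/kg/day 0 members passed in limma, 4 had an unadjusted p under 0.05, voom called 0, and 0.0407% of all genes passed. There the intervals reached from −0.70 to 0.84. These intervals leave room for differences of a size seen against saline.

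On the ND, the median member was lower with AN1284 relative to the typical gene, and few members passed. It stood at 0.416, 0.105 and 0.23 from its overall mean in ND saline replicates 1 to 3. With 1 mg/kg/day it stood at −0.028, −0.03 and 0.181, and with 5 mg/kg/day at 0.041, −0.056 and 0.102. Replicate 3 given 1 mg/kg/day thus lay above ND saline replicate 2, and the groups overlap at that dose. At 1 mg/kg/day 2 members were lower than in ND saline livers and 0 higher (limma), where 1.74% of all genes were lower, with a median of −0.22 against 0.00 for all genes. The share of members called was near that of all genes. With 5 mg/kg/day 7 were lower and 0 higher, where 3.89% of all genes were lower, with a median of −0.22. Scaled by totals, the medians were −0.05 and −0.07 and 0 and 1 members were lower at 1 and 5 mg/kg/day, while the median of all genes moved by 0.16 and 0.15. The counts depended on ND saline replicate 2, the ND saline liver with the lowest members: without it 8 and 21 members were lower. Without ND saline replicate 1 or replicate 3 there were 0 at 1 mg/kg/day and 1 at 5 mg/kg/day in both cases. Without any 1 of the 3 livers given 1 mg/kg/day there were 0, 0 and 1, and without replicate 2 or 3 of those given 5 mg/kg/day there was 1.

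Mrps31 again had the smallest p, against the ND saline livers that also served in the diet comparison. It had 866.3, 858.8 and 845.7 in ND livers given 1 mg/kg/day and 867.1, 788.6 and 742.0 in those given 5 mg/kg/day, against 1098.8, 1018.1 and 1208.9 in ND saline livers. All 6 treated livers lay below all 3 saline livers, with log2 fold changes of −0.37 ± 0.10 (limma, adjusted p = 0.0331) at 1 mg/kg/day and −0.47 ± 0.10 (adjusted p = 0.00711) at 5 mg/kg/day. Mrpl33, a large-subunit protein, had 293.7, 294.1 and 346.3 in ND livers given 1 mg/kg/day, against 554.5, 375.4 and 416.0 in ND saline livers (−0.51 ± 0.14, adjusted p = 0.0496). Its gene lies within a long antisense overlap with Rbks.

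Mrps10 had 701.2, 661.2 and 717.2 in ND livers given 5 mg/kg/day, against 1149.9, 871.9 and 959.8 in ND saline livers (−0.51 ± 0.13, limma, adjusted p = 0.0218). Mrpl42 had 1190.4, 1009.6 and 1155.7 in ND livers given 5 mg/kg/day, against 1512.8, 1239.4 and 1856.3 in ND saline livers (−0.44 ± 0.12, adjusted p = 0.0309). Neither gene showed overlap between the groups. Of these, Mrps31 at 5 mg/kg/day was the only call that held when scaled by totals.

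Markers also moved on the ND. With 5 mg/kg/day, 6 of 12 macrophage markers were higher than in ND saline livers (sums of 16612 to 24067, and 7822 to 12255 in ND saline livers), as were 3 of 8 endothelial markers (4002 to 5411, and 2910 to 3137 in ND saline livers) and 2 of 9 lymphocyte markers (limma). Of 13 hepatocyte markers 1 was lower at each dose, with sums of 3013649 to 3759818 with 1 mg/kg/day and 3764633 to 4197748 with 5 mg/kg/day, and 4026585 to 4201248 in ND saline livers. With 1 mg/kg/day 1 of 12 stellate cell markers was lower. The part of the markers in the members' values was not tested.

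With size factors the median member was above saline on the WD and below it on the ND, whereas scaled by totals the medians were 0.05 and −0.00 on the WD and −0.05 and −0.07 on the ND at 1 and 5 mg/kg/day. An interaction term of the 6-group fit tested whether the diets differed in this. It is built from the same saline and treated livers as the comparisons above and below. Its counts therefore restate those comparisons in part and are not separate evidence. At 1 mg/kg/day the effect on the WD exceeded that on the ND in 29 members and was below it in 0 (limma), where 9.39% of all genes were in the first direction, with a median difference of 0.50 log2. With 5 mg/kg/day it did in 21 members, where 8.54% of all genes did, with a median of 0.46. For the interaction scaled by totals, 2 members were above and 1 below at each dose. The members' medians were then 0.10 and 0.08, while the median of all genes moved by −0.39 and −0.37. With size factors, 69 of the 77 members were positive on the WD and negative on the ND at 1 mg/kg/day, and 64 at 5 mg/kg/day. These signs were counted neither over all genes nor with totals, and the members moved together from liver to liver.

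Mrps31 had the smallest p of the members for the interaction at both doses. It also had the largest fall between the saline groups, which enter the interaction, so this is not an independent recurrence. Its difference was 0.83 ± 0.13 at 1 mg/kg/day (limma, adjusted p = 0.00031) and 0.87 ± 0.14 at 5 mg/kg/day (adjusted p = 0.000585). Mrpl15 had 0.71 ± 0.15 (adjusted p = 0.00259) and 0.74 ± 0.15 (adjusted p = 0.00329) at 1 and 5 mg/kg/day. Mrpl35 had 0.62 ± 0.13 at 1 mg/kg/day (adjusted p = 0.00281), and Mrps10 had 0.73 ± 0.18 at 5 mg/kg/day (adjusted p = 0.0112). The counts moved with single libraries: between 12 and 44 members passed at 1 mg/kg/day and between 9 and 29 at 5 mg/kg/day when 1 of the livers was left out. The largest count at 1 mg/kg/day, 44, came without WD AN1284 1 mg replicate 1, and without replicates 2, 3 and 4 of that group the counts were 17, 15 and 13. Without WD saline replicates 1 and 3 they were 12 and 15, without ND AN1284 1 mg replicates 1 and 2 they were 16 and 16, and without ND saline replicates 1 and 3 they were 12 and 19. The counts at 5 mg/kg/day were 11 without WD AN1284 5 mg replicate 3, 9 and 13 without WD saline replicates 1 and 3, 10 without ND AN1284 5 mg replicate 2 and 11 without ND saline replicate 3. Scaled by totals, Mrps31 still passed at both doses (0.43 and 0.49). Mrpl15 then passed at 5 mg/kg/day (0.36, limma, adjusted p = 0.0365) and not at 1 mg/kg/day (0.31, adjusted p = 0.0572), and neither Mrpl35 (0.22, adjusted p = 0.169) nor Mrps10 (0.36, adjusted p = 0.124) passed.

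**Figure D4:**
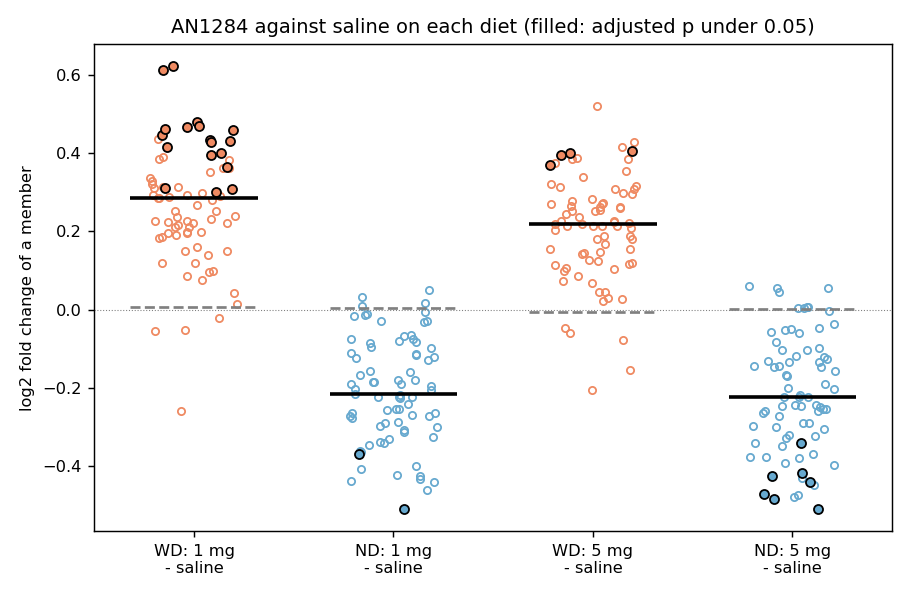
Log2 fold changes of the 77 members for AN1284 over saline at each dose, WD beside ND; filled points had an adjusted p under 0.05, black bars are the medians of the members (0.28, −0.22, 0.22 and −0.22 from left to right) and dashed bars those of all genes. Most points lie above 0 on the WD and below 0 on the ND.

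Between the diets at equal doses the members were close. In WD against ND livers given 1 mg/kg/day 0 members passed in limma, 7 had an unadjusted p under 0.05 and voom called 0, where 13% of all genes passed in either direction. The members' median was −0.04. At 5 mg/kg/day it was 0 members, 0 at an unadjusted p under 0.05 and 0 with voom, where 3.07% of all genes passed, with a median of −0.10. The 95% intervals of single members reached from −0.64 to 0.78 at 1 mg/kg/day and from −0.64 to 0.43 at 5 mg/kg/day.

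Set against ND saline livers, which also serve in the comparisons above, the WD livers given AN1284 had lower members relative to the typical gene. At 1 mg/kg/day 23 members were lower and 0 higher (limma), where 13.5% of all genes were lower, with a median of −0.24. At 5 mg/kg/day 28 were lower and 0 higher, where 14.1% of all genes were lower, with a median of −0.32. Scaled by totals, 5 were lower and 1 higher at 1 mg/kg/day and 9 lower and 0 higher at 5 mg/kg/day. The count at 1 mg/kg/day was 12 and 15 without replicates 1 and 2 of the WD livers given AN1284, and 10 and 12 without ND saline replicates 1 and 3. That at 5 mg/kg/day was 11 and 12 without replicates 1 and 2 of the WD livers given AN1284, and 11 and 12 without ND saline replicates 1 and 3.

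With the same ND saline livers, the smallest p values here were again those of Mrps31. It had −0.50 ± 0.09 (limma, adjusted p = 0.000517) at 1 mg/kg/day and −0.57 ± 0.10 (adjusted p = 0.000428) at 5 mg/kg/day. Mrpl42, of the large subunit, had −0.63 ± 0.12 (adjusted p = 0.000606) at 1 mg/kg/day, where its counts were 880.6, 955.2, 1013.1 and 1066.3, below those of every ND saline liver. Mrpl38 had −0.75 ± 0.13 (adjusted p = 0.000707) at 5 mg/kg/day, and Mrpl15 had −0.55 ± 0.10 (adjusted p = 0.000665) and −0.56 ± 0.11 (adjusted p = 0.00108) at 1 and 5 mg/kg/day.

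The members moved together from liver to liver, within groups as well as between them. Over the 2926 pairs of members the median Pearson correlation of log2 values was 0.70 across 19 libraries and 0.65 for the deviations from group means, with 95.6% of pairs above 0 in the second case. All points share libraries and scaling, so this is a description. The members nearest to the median of the others over 19 libraries were Mrps35 (r = 0.961), Mrpl24 (r = 0.960) and Mrpl34 (r = 0.949), and the farthest were Mrpl50 (r = 0.263) and Mrpl16 (r = 0.140). In several livers 2 other lists stood on the same side as the members. In WD livers given 1 mg/kg/day, replicates 1 and 4 stood at −0.26 and 0.18 for the members, at −0.25 and 0.18 for cytosolic ribosomal proteins and at −0.33 and 0.25 for nuclear subunits of the respiratory chain. In ND saline livers, replicates 1 and 2 stood at 0.42 and 0.10 for the members, at 0.65 and 0.09 for cytosolic ribosomal proteins and at 0.64 and 0.17 for the respiratory chain subunits. The mitochondrial mRNAs could stand on the other side: ND AN1284 1 mg replicate 3 was at −1.01 for them and at 0.18 for the members, and WD AN1284 5 mg replicate 1 at 0.32 for them and at −0.15 for the members. The part of this movement in the members' values was not tested.

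Genes that work with the mitochondrial ribosome were read from lists, on normalized counts. The counts lower on the WD stand beside 25% of all genes lower and 28.1% higher. Counts higher with 1 and 5 mg/kg/day against WD saline stand beside 10.3% and 5.51% of all genes. The shares called lower among translation factors, tRNA charging enzymes and regulators were near that background. Scaled by totals, where 51.4% of all genes were higher and 9.16% lower, 9 of 26 assembly factors were higher and 1 lower, 7 of 15 translation factors higher and 0 lower, and 10 of 20 tRNA charging enzymes higher and 0 lower. Of the genes of mitochondrial DNA transcription and replication, 3 of 11 were then higher and 0 lower, of the regulators 6 of 10 and 1, of the import and chaperone genes 6 of 16 and 2, and of the mitochondrial mRNAs 0 of 12 and 1. The 5 mitochondrial ribosomal proteins that carry other names had a median of −0.66 in WD saline against ND saline livers, and 4 of 5 were lower (limma). Gadd45gip1, which sits at the exit of the large subunit, had 748.2 ± 91.0 in WD saline livers and 1740.5 ± 351.8 in ND saline livers (SD, n = 3 each; −1.20 ± 0.17, adjusted p = 2.5e-05). Aurkaip1 fell by 0.86 ± 0.16 and Chchd1 by 0.66 ± 0.13 on the log2 scale, both of the small subunit. With 1 mg/kg/day 2 of the 5 were higher than in WD saline livers, and with 5 mg/kg/day 1 was.

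Of 26 assembly factors 13 were lower and 1 higher on the WD, with a median of −0.36. Mterf3, which binds mitochondrial DNA and helps assemble the large subunit, fell by 0.67 ± 0.12 on the log2 scale, and Rpusd3, a pseudouridine synthase, fell by 0.74 ± 0.14. Trub2, another pseudouridine synthase, rose by 0.82 ± 0.15 (limma, adjusted p = 0.000241). Of 15 translation factors tested 4 were lower and 0 higher (median −0.15), among them Oxa1l, which inserts the new proteins into the inner membrane (−0.43 ± 0.10), Slirp, an RNA stabilizer (−0.66 ± 0.18), and Mrrf, the ribosome recycling factor (−0.31 ± 0.11).

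Of 20 mitochondrial tRNA charging enzymes and their partners, 6 were lower and 6 higher (limma), with a median of −0.20. Iars2, for isoleucine, had 2721.9 ± 289.5 in WD saline livers and 1711.0 ± 243.7 in ND saline livers (0.67 ± 0.12, adjusted p = 0.000155). Nars2, for asparagine, fell by 0.64 ± 0.13, and Mars2, for methionine, rose by 0.66 ± 0.18.

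Of 11 genes for mitochondrial DNA transcription and replication 6 were lower and 2 higher (median −0.25). Ssbp1, the single-strand binding protein, fell by 0.66 ± 0.13, Top1mt, a topoisomerase, by 0.50 ± 0.13, and Polg2, the accessory subunit of the polymerase, by 0.94 ± 0.24 on the log2 scale (limma). Of 10 regulators of nuclear genes for mitochondria 2 were lower and 0 higher (median 0.14). Ppargc1a, a coactivator of mitochondrial biogenesis, had 193.4 ± 39.1 in WD saline livers and 423.9 ± 104.3 in ND saline livers (−1.12 ± 0.24, adjusted p = 0.00102), and Esrra, an orphan receptor it works with, fell by 0.43 ± 0.16. Nrf1 itself had 0.27 ± 0.12 and did not pass (adjusted p = 0.0637). Of 16 import and chaperone genes 8 were lower and 1 higher (median −0.27), led by the chaperonin Hspe1 (−0.95 ± 0.16) and the protease Clpp (−0.99 ± 0.17). Timm44, of the import motor, fell by 0.41 ± 0.11.

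The mRNAs that the mitochondrial ribosome translates are themselves encoded in mitochondria, and 12 of them were tested. Of these 7 were lower and 0 higher on the WD, with a median of −0.83 (limma). mt-Nd4, a subunit of complex I, had 115048.6 ± 20057.6 in WD saline livers and 222439.9 ± 64894.3 in ND saline livers (−0.92 ± 0.22, adjusted p = 0.00202). mt-Cytb, of complex III, fell by 0.70 ± 0.23. mt-Co2 passed as well (−1.07 ± 0.34, adjusted p = 0.0134), but it was listed at 37.4 ± 10.8 in WD saline livers and 78.7 ± 18.4 in ND saline livers, far below mt-Co1 at 330376.7 ± 52641.4 and 453721.2 ± 77458.0, so the counts of this gene are uncertain. mt-Nd3, mt-Co3 and mt-Atp6 were listed as low (95.6, 104.1 and 69.6 in WD saline livers, against 139.3, 262.0 and 124.1 in ND saline livers) and are uncertain likewise. With 1 and with 5 mg/kg/day 0 of the 12 passed against WD saline, and 0 had an unadjusted p under 0.05 at either dose.

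Of the 79 nuclear respiratory chain subunits tested 62 were lower and 0 higher on the WD, with a median of −0.71. Atp5h, of the ATP synthase, had 2489.9 ± 333.4 in WD saline livers and 5633.7 ± 1233.6 in ND saline livers (−1.16 ± 0.16, limma, adjusted p = 2e-05), and Uqcrb and Ndufb10, of complexes III and I, fell by 1.03 ± 0.15 and 1.16 ± 0.17 on the log2 scale. Of the 78 cytosolic ribosomal proteins 61 were lower and 0 higher, with a median of −0.56, close to the −0.54 of the members, among them Rpl7a (−0.81 ± 0.12), Rpl27a (−0.93 ± 0.15) and Rps26 (−0.97 ± 0.15). With 1 mg/kg/day 14 of the 79 respiratory chain subunits and 2 of the 78 cytosolic ribosomal proteins were higher than in WD saline livers. Of all genes 10.3% were, so the share of cytosolic ribosomal proteins lay below that of all genes. Scaled by totals, 26 respiratory chain subunits were lower and 5 higher on the WD, and 13 cytosolic ribosomal proteins were lower and 1 higher. The fall of the members on the WD was thus not particular to them.

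**Figure D5:**
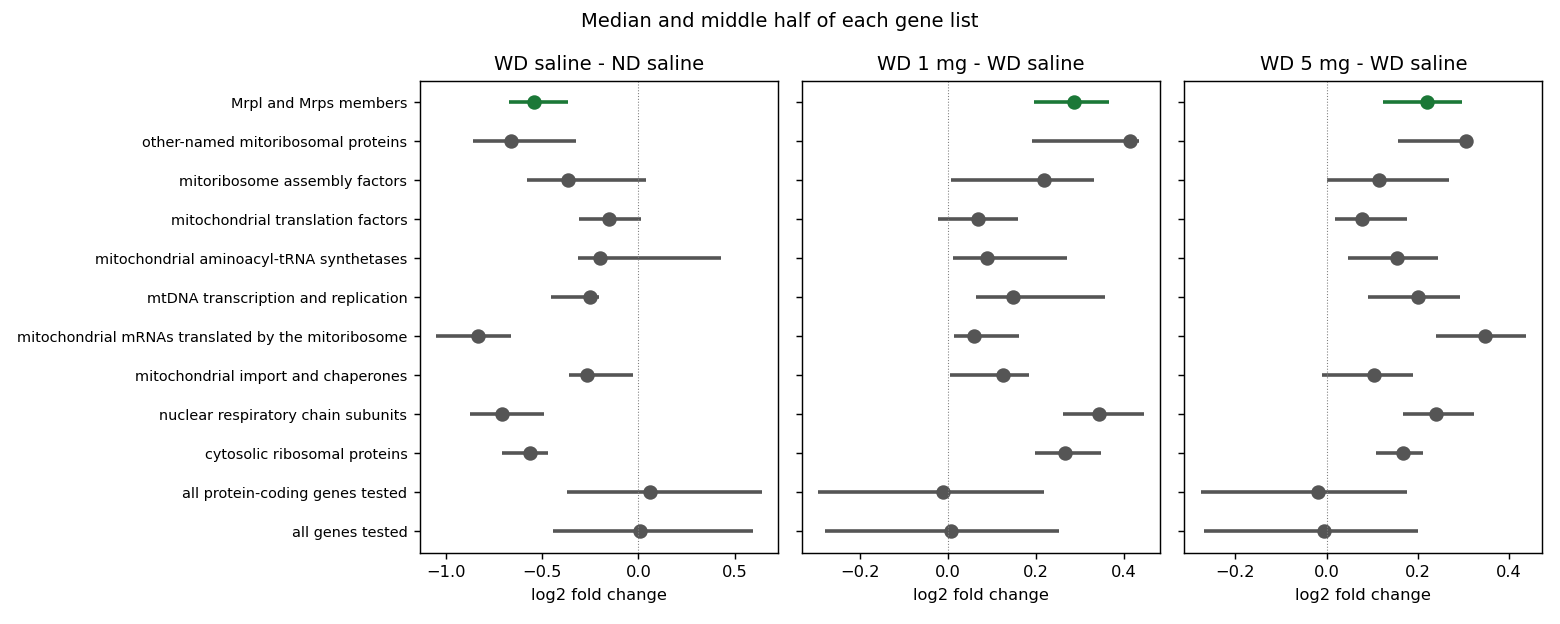
Median (point) and quartiles (line) of the log2 fold changes of each gene list in WD saline over ND saline, WD AN1284 1 mg over WD saline and WD AN1284 5 mg over WD saline, on normalized counts. On the WD the members (−0.54), the nuclear respiratory chain subunits (−0.71) and the cytosolic ribosomal proteins (−0.56) lie left of all genes (0.01).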

How the data were processed

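Liver RNA of 19 mice (poly-A selection, KAPA Stranded kit, sequenced in 2 runs) was compared in 6 groups taken from the sample labels. After trimming (cutadapt 1.18) and alignment to GRCm38 (TopHat2 2.1.1), the authors obtained gene counts from HTSeq 0.6.0 and deposited them beside counts normalized by the size factors of DESeq2 1.22.1. The annotation release and the strand setting are not given in the sources used here. The deposited table also holds the authors' own fold changes and p-values between groups, which were not used. Some cells hold a question mark in place of a number (6252 genes without a count), and for this reason edgeR and DESeq2 were not run. The reads of the genes tested were used in limma voom as an alternative, and reads also gave the totals and shares.

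Normalized counts were taken as log2(count + 1). Genes at 10 or more in at least 3 libraries (14743) entered 1 model of the 6 groups in limma 3.58.1 (trend, robust; R 4.3.3), with Benjamini-Hochberg adjustment and a threshold of 0.05. Errors after ± are standard errors for fold changes and SDs for levels. Each fold change is on the log2(count + 1) scale. The 23326800 to 32596067 reads per library gave the members a median half-width of the 95% interval of 0.29 log2 (WD saline against ND saline). Nothing in the labels ties a library to a sequencing run, and replicate numbers were not used to pair livers.

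Named members were, of those that passed, the 6 largest falls and rises in WD saline against ND saline, the 4 largest in each dose against WD saline and the 3 of smallest p elsewhere (all where 5 or fewer passed), plus the 2 highest and 2 lowest in level, Mrps30, Mrps36 and the Mrps18 paralogs, the 3 members most like the median, and up to 3 genes of each list. Mrpl3, Mrpl16, Mrpl46, Mrpl50, Mrpl52, Mrpl54, Mrps11 and Mrps25 were added after their values were seen. The members and lists were chosen with earlier results of these data known. Alternatives were another pseudocount, no filter, scaling by totals, limma voom, only the groups compared, a replicate block, and leaving out each library.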

Additional observations from a re-analysis of the deposited data

Results flagged for a closer look

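With size factors, some members passed the test for a difference between the AN1284 effects on the WD and on the ND. Those of smallest p are given here, so their passing follows from the choice. At 1 mg/kg/day it was 0.83 for Mrps31, 0.71 for Mrpl15 and 0.62 for Mrpl35 on the log2 scale, and at 5 mg/kg/day it was 0.87 for Mrps31, 0.74 for Mrpl15 and 0.73 for Mrps10 (limma, all with adjusted p under 0.05). In each case the change with size factors was positive on the WD and negative on the ND. Scaled by totals, Mrps31 passed at both doses and Mrpl15 at 5 mg/kg/day only, and neither Mrpl35 nor Mrps10 passed.

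In the group of 4 WD livers given 1 mg/kg/day, the lowest Mrpl18 value (670.5, replicate 1) stood far from the other 3. Of the 77 members 2 had such a gap, a smaller share than the about 1 in 20 that chance gives. The members move together, so this rate is only a rough guide, and the gap is not read as a result.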

How the results depend on the processing

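The 58 members lower in WD saline against ND saline kept this sign in every fit without 1 library, and 46 kept the call in all of them. The choice of scaling changed most. With library totals the counts of members called in the direction given above were 11 (WD saline against ND saline), 0 and 0 (AN1284 1 and 5 mg against WD saline), 0 and 1 (AN1284 1 and 5 mg against ND saline), 5 and 9 (WD AN1284 1 and 5 mg against ND saline) and 2 and 2 (interactions at 1 and 5 mg). Of the 58 members called lower in WD saline against ND saline, 50 kept their sign with totals. Mrps30 (0.15) and Mrps18b (0.13) were among those that changed sign. Members that had not been called, such as Mrps18a (0.35) and Mrpl12 (0.16), changed sign as well. Without the filter the counts were 2 for AN1284 5 mg against WD saline, and 0 and 4 for 1 and 5 mg on the ND. With a pseudocount of 8 it was 1 for 1 mg on the ND. With limma voom they were 1 and 4 on the ND. With only the compared groups they were 0 and 2 on the ND, and 12 and 16 for WD AN1284 1 and 5 mg against ND saline.

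Leaving out 1 library gave 49 to 60 members for WD saline against ND saline. For AN1284 on the WD it gave 4 to 39 at 1 mg and 0 to 5 at 5 mg, and on the ND 0 to 8 and 1 to 21. For the treated WD livers against ND saline it gave 10 to 29 at 1 mg and 11 to 39 at 5 mg. Between the diets at 1 mg it gave 0 to 1, the 1 without WD AN1284 1 mg replicate 4, and at 5 mg 0 to 0. Between doses it gave 0 to 0 on both diets. The interactions gave 12 to 44 at 1 mg and 9 to 29 at 5 mg. Leaving out libraries for the interactions was chosen after seeing the data. For none of these fits is the share of all genes called given.

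Over all genes tested, livers that share a replicate number did not deviate together (45 pairs, r from −0.27 to 0.24, 12 over 0.1). The members' median deviation from their group means was positive in replicate 3 of every group given AN1284 (0.077 to 0.159). In replicate 2 of these groups it was negative (−0.091 to −0.005). In saline livers replicate 2 stood at −0.176 on the ND and 0.111 on the WD, and replicate 3 at 0.017 and −0.002. A tie of the members to the replicate number was not tested. With a replicate block the counts were 7 for AN1284 1 mg against WD saline, 0 for 1 mg on the ND, 1 between the diets at 1 mg and 15 for the interaction at 1 mg, and within 1.5 times elsewhere. edgeR and DESeq2 were not run, since some cells hold no count. With 3 or 4 livers a group, the median half-width of a member's interval was 0.29 for WD saline against ND saline.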
